A study of Mus musculus with 25 samples.

Results

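Arginine, proline, serine and glycine are made inside the cell by a small set of enzymes, and 9 of their genes were followed here in lung cells during bleomycin-induced fibrosis: Ass1, Asl, Pycr1, Aldh18a1, Prodh, Phgdh, Psat1, Psph and Shmt2. They were chosen by name, as genes that supply the amino acids of collagen, and Ass1 because of its rise 3 weeks after bleomycin in the same bulk libraries, so the levels at week 3 against naive are given as a description with no test. The 9 genes are among 47729 listed in the bulk table, where all 9 passed the filter on low counts that left 15773 genes tested, and among 31053 features listed in the single-cell tables.

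The libraries were made from Lin- cells of the lungs of Col1a1-Cre-ERT2;Fas fl/fl mice, a gate that keeps live cells without CD45, CD31 or CD326 on their surface (DAPI-, CD45-, CD31-, CD326-). This Cre is driven by the Col1a1 promoter and becomes active with tamoxifen. Mice labelled Fas-/- received tamoxifen after intratracheal bleomycin, which damages the alveolar epithelium and is followed by fibrosis that resolves, and mice labelled Fas+/+ carried the same alleles but received corn oil, so that Fas deletion and tamoxifen cannot be told apart. Bulk RNA-seq held 4 libraries each of naive mice without bleomycin, of Fas+/+ and Fas-/- mice at week 3 and of both at week 6, and single-cell RNA-seq held 1 library for each of these 5 conditions. The labels give replicate numbers only, the study's methods call bulk replicates individual animals, and each single-cell library pooled 4 mice. The p-values measure the spread between these libraries.

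Collagen is unusually rich in glycine and proline, and arginine, glutamate and serine feed their synthesis. Argininosuccinate synthase (Ass1) joins citrulline to aspartate, and argininosuccinate lyase (Asl) splits the product into arginine and fumarate. Aldh18a1 encodes the synthase that carries glutamate to the precursor of proline and ornithine, Pycr1 the mitochondrial reductase that completes proline, and Prodh the dehydrogenase that begins its breakdown. Phgdh, Psat1 and Psph act in that order to make serine from a glycolytic intermediate, and Shmt2 turns serine into glycine in mitochondria. Several of these genes are known targets of ATF4, the transcription factor of the amino acid stress response.

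The genes lie on GRCm38 at chr2:31470207-31520672 (Ass1, plus strand), chr5:130011258-130029247 (Asl), chr11:120635712-120643769 (Pycr1), chr19:40550257-40588463 (Aldh18a1), chr16:18060357-18090203 (Prodh), chr3:98313170-98339990 (Phgdh), chr19:15904678-15947337 (Psat1), chr5:129765558-129787449 (Psph) and chr10:127517123-127522444 (Shmt2), the last 8 on the minus strand. Prodh overlaps Dgcr6, Psph overlaps Cct6a and Shmt2 overlaps Ndufa4l2, each on the other strand, while Aldh18a1 and Psat1 contain processed pseudogenes and Phgdh has a named pseudogene elsewhere. Whether reads were counted by strand is not given in the sources used here, so the counts of these 6 genes may hold reads of a neighbour or copy. RefSeq promoter sequences of GRCm38.p6 matched 8 of the 9 genes.

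The last 110 bases before the RefSeq start site are shown for the 3 promoters that held 1 of the 2 motifs searched. They were chosen because these genes carry out the synthesis of arginine and proline. For Ass1 and Pycr1 the gene as placed above begins inside the printed stretch, and for Ass1 it begins before the marked motif. Motifs were searched on both strands in the window from 250 bases before to 50 after the start, and their letters are in capitals. CACGTG, the E-box that basic helix-loop-helix factors bind, stood in the promoters of Ass1 and Aldh18a1, and in 2349 of all 32851 promoters (7.15%). TGATGNAA, the core shared by sites of C/EBP and ATF factors, stood in the promoter of Pycr1 and in 1304 promoters (3.97%). A match is only a match of letters.
Ass1 promoter, chr2:31470160-31470269, plus strand: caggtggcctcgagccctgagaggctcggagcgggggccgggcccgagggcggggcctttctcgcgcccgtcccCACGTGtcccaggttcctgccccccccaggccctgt
Aldh18a1 promoter, chr19:40588464-40588573, minus strand: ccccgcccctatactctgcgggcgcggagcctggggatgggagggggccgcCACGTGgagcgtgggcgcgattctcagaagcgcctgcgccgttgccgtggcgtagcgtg
Pycr1 promoter, chr11:120643749-120643858, minus strand: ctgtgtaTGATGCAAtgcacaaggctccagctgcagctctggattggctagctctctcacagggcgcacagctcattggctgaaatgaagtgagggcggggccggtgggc

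Several facts of the libraries bear on the results. Bulk libraries held between 11819700 and 25189096 counts. Summed blood endothelial markers (9 of 9 detected in every group, Pecam1 among them) ran from 188 to 530 CPM in naive libraries, from 3476 to 12506 in week 3 Fas+/+, from 890 to 11040 in week 3 Fas-/-, from 599 to 2418 in week 6 Fas+/+ and from 144 to 3442 in week 6 Fas-/- libraries. CPM are counts per 1000000 counts after TMM scaling of library sizes. Week 3 Fas+/+ replicate 1 (12506 CPM) and week 3 Fas-/- replicate 4 (11040 CPM) stood apart, and they also had the lowest summed profibrotic fibroblast markers of their groups, 8889 and 15751 CPM against 31279 to 43119 CPM in the other 6 week 3 libraries. Values are therefore also given without these 2 libraries. Hematopoietic markers summed to 1.30 to 27.4 CPM, alveolar epithelial markers to 56.4 to 1453 CPM, and Epcam, which defines the CD326 gate, reached 5.17 CPM at most. Erythroid markers (5 of 5 detected) summed to 2979 to 9589 CPM in naive libraries and to 17.1 to 235 CPM in all bleomycin libraries, and all 5 were called lower in each comparison with naive. Alveolar lipofibroblast markers (9 of 9 detected) summed to 7970 to 9386 CPM in naive, 3240 to 4870 CPM in week 3 Fas+/+, 4702 to 6565 CPM in week 3 Fas-/-, 6073 to 7377 CPM in week 6 Fas+/+ and 6788 to 7960 CPM in week 6 Fas-/- libraries. At week 3, 8 and 5 of the 9 were called lower in Fas+/+ and Fas-/- (19.2% and 14.8% of all genes), and 0 and 1 were called higher. The part of these cells in the comparisons with naive was not tested. Fas was not lower in Fas-/- libraries: it was at 34 to 57.7 CPM in Fas+/+ and 34.4 to 64.9 CPM in Fas-/- at week 3, and since the deletion removes a single exon, counts summed over the gene do not check it.

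The week labels of the single-cell and the bulk libraries went opposite ways. Genes called between week 6 and week 3 in bulk were used if they had at least 100 UMIs over the 5 single-cell libraries. UMIs are unique molecular identifiers, or counted molecules. Of 3327 such genes in Fas+/+, 110 (3.31%) differed in the same direction in the single cells, and of 1294 in Fas-/-, 81 (6.26%) did. Within mesenchymal-like cells the counts were 321 of 3174 genes (10.1%) and 93 of 1237 (7.52%). Single-cell values are therefore given for "the library labelled" with a week, and no direction over time is drawn from them.

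Ass1 had the largest rise of the 9 genes at week 3. It was at 5.08, 4.75, 6.11 and 5.41 CPM in the 4 naive libraries. In week 3 Fas+/+ it was at 27.3, 49.4, 55.8 and 41.0 CPM, and in week 3 Fas-/- at 37.2, 38.3, 27.5 and 31.8 CPM. All 8 week 3 libraries were above all 4 naive ones. The means were 5.34 ± 0.581 CPM in naive, 43.4 ± 12.3 CPM in Fas+/+ and 33.7 ± 5.0 CPM in Fas-/- (SD, n = 4 each), and the fitted log2 fold changes were 3.02 (SE 0.20) and 2.66 (SE 0.20), which correspond to 8.11-fold and 6.32-fold. The rule that picked Ass1 used this contrast. With the mean log2 level of the blood endothelial markers as a covariate, the log2 fold changes were 3.07 (SE 0.30) and 2.69 (SE 0.25). The marker sums of naive libraries (530 CPM at most) and week 3 libraries (890 CPM at least) did not overlap. This covariate therefore cannot be fully separated from the comparison with naive. In bulk RNA, more cells of a type and more RNA per cell cannot be told apart.

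At week 6, Ass1 stood between the naive and the week 3 levels. It was at 11.1, 17.9, 12.4 and 16.2 CPM in Fas+/+ and at 15.9, 17.3, 15.3 and 14.2 CPM in Fas-/- libraries. Every week 6 library was above every naive and below every week 3 library. The log2 fold change against naive was 1.43 (SE 0.19) in Fas+/+ and 1.55 (SE 0.19) in Fas-/-, and against week 3 it was -1.59 (SE 0.19) and -1.11 (SE 0.19), again as descriptions. Replicate 1 of week 6 Fas-/- had Ass1 at 15.9 CPM with blood endothelial markers at 144 CPM, which was below every naive library for the markers. The part of endothelial cells in the levels of Ass1 was not tested.

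**Figure D1:**
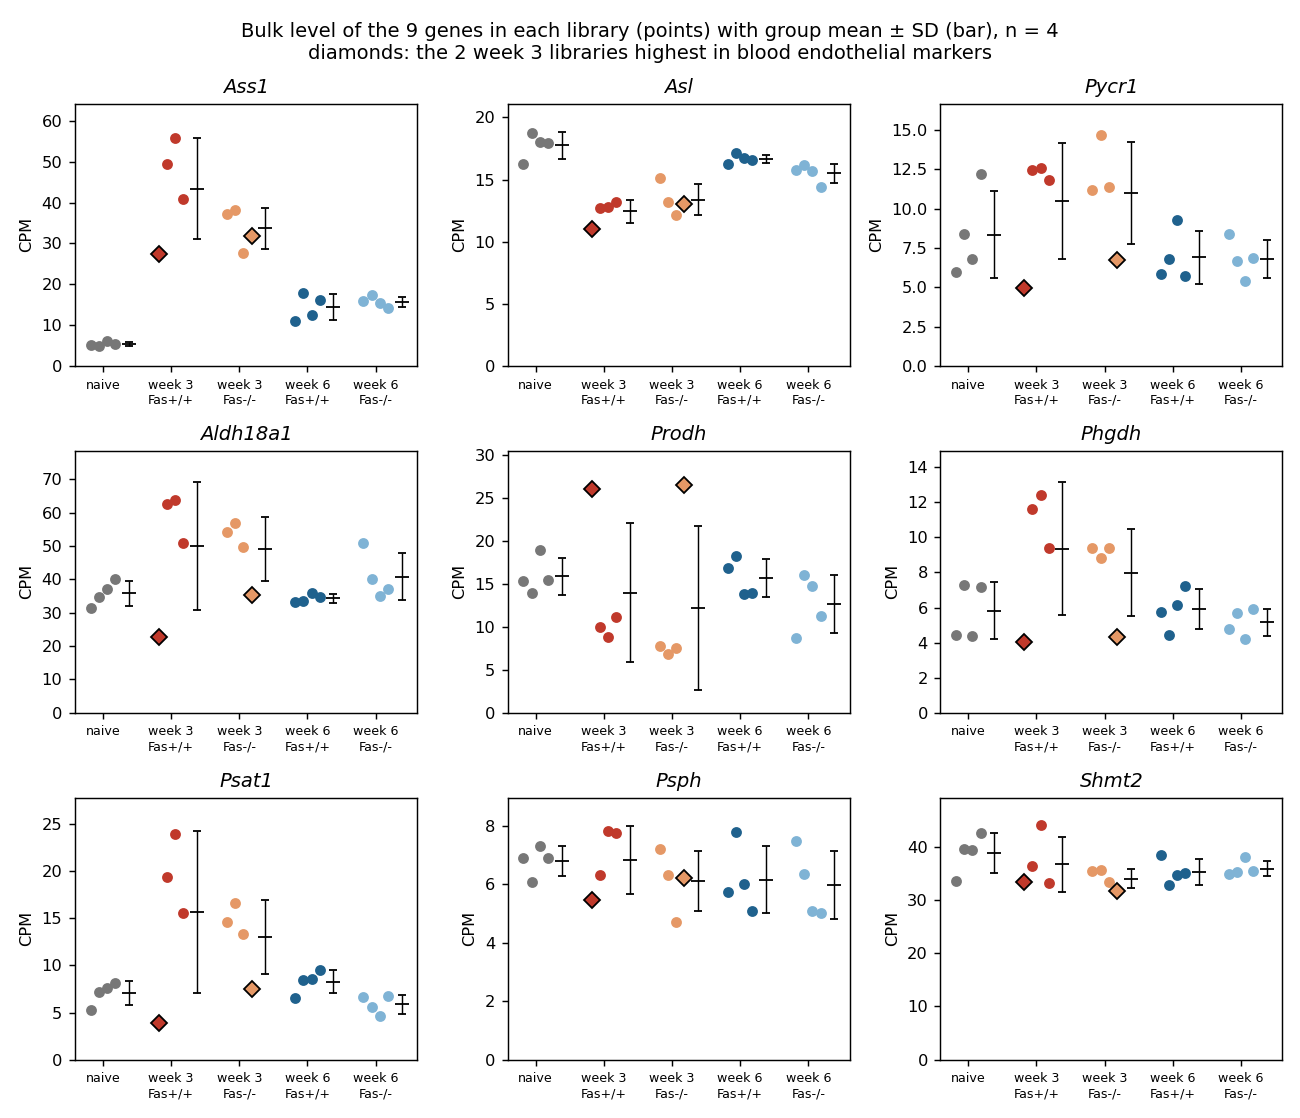
CPM of the 9 genes in each of the 20 bulk libraries (points, axes from 0), with group mean and SD (n = 4), and diamonds for week 3 Fas+/+ replicate 1 and week 3 Fas-/- replicate 4. All 8 week 3 libraries are above 27 CPM for Ass1 while naive libraries stay below 7, and for Pycr1, Aldh18a1, Phgdh and Psat1 the diamonds sit lowest of their groups and for Prodh highest.

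Asl, the next enzyme of the same pathway, went the other way. It was at 16.2, 18.7, 18.1 and 18 CPM in naive libraries. In week 3 Fas+/+ libraries it was at 11, 12.7, 12.8 and 13.2 CPM, and in week 3 Fas-/- libraries at 15.1, 13.2, 12.2 and 13.0 CPM, with no overlap with naive in either genotype. The log2 fold changes were -0.51 (SE 0.08) and -0.41 (SE 0.08). Of 7 mesothelial markers, 6 in Fas+/+ and 5 in Fas-/- were called lower at week 3 and 0 higher (19.2% and 14.8% of all genes were lower). From week 3 to week 6, 5 and 6 of them were called higher and 0 lower, where 22.9% and 9.02% of all genes were called in either direction. Mesothelial-like cells were among those with the most Asl in the single cells, and their part in its bulk levels was not tested. Between week 3 and week 6, Asl rose in Fas+/+ to 16.3, 17.1, 16.7 and 16.6 CPM, a log2 fold change of 0.42 (SE 0.08, edgeR adjusted p = 0.00115, higher in 4 of 4 libraries), and this call was kept in every alternative run. In Fas-/- it was at 15.8, 16.2, 15.7 and 14.4 CPM, a log2 fold change of 0.21 (SE 0.08, edgeR adjusted p = 0.0903), called without week 3 Fas-/- replicate 1 (log2 fold change 0.28, adjusted p = 0.0442, with a range of 0.0442 to 0.222 over the alternatives).

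Of the enzymes of proline synthesis, Aldh18a1 was above every naive library in 6 of 8 week 3 libraries, and Pycr1 overlapped naive. Aldh18a1 ranged from 31.3 to 40.1 CPM in naive libraries, and was at 22.8, 62.7, 63.8 and 50.8 CPM in week 3 Fas+/+ and 54.3, 56.8, 49.8 and 35.4 CPM in week 3 Fas-/- libraries. The exceptions were the 2 libraries highest in endothelial markers. The log2 fold changes were 0.48 (SE 0.23) and 0.45 (SE 0.23), and without those libraries they were 0.72 and 0.57. Pycr1 was at 5.94, 8.39, 6.78 and 12.2 CPM in naive libraries, at 4.96, 12.5, 12.6 and 11.8 CPM in week 3 Fas+/+ and at 11.2, 14.7, 11.4 and 6.73 CPM in week 3 Fas-/-. One naive library reached the week 3 level, so the groups overlapped, and the log2 fold changes were 0.32 (SE 0.29) and 0.40 (SE 0.29), or 0.55 and 0.56 without the same 2 libraries. At week 6 Pycr1 was at 5.42 to 9.27 CPM and Aldh18a1 at 33.1 to 51.0 CPM.

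Prodh, which degrades proline, had the opposite order of libraries. It was at 15.3, 13.9, 19 and 15.4 CPM in naive libraries. In week 3 Fas+/+ it was at 26.1, 9.96, 8.77 and 11.2 CPM and in week 3 Fas-/- at 7.80, 6.87, 7.59 and 26.6 CPM. The 2 libraries richest in endothelial markers were above all naive libraries and the other 6 were below all of them. The log2 fold changes of -0.18 (SE 0.39) and -0.38 (SE 0.39) became -0.67 and -1.11 without week 3 Fas+/+ replicate 1 and week 3 Fas-/- replicate 4. With the endothelial covariate the log2 fold changes of Prodh were -1.77 (SE 0.40) and -1.63 (SE 0.35). That covariate cannot be fully separated from the comparison with naive, and the part of endothelial cells in Prodh was not tested. At week 6 Prodh was at 13.8 to 18.3 CPM in Fas+/+ and 8.72 to 16 CPM in Fas-/- libraries.

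The first 2 enzymes of serine synthesis followed the same libraries as Aldh18a1. Psat1 was at 5.25, 7.19, 7.59 and 8.14 CPM in naive libraries. It was at 3.93, 19.4, 23.9 and 15.5 CPM in week 3 Fas+/+ and at 14.6, 16.6, 13.3 and 7.49 CPM in week 3 Fas-/-. Apart from the 2 endothelial-rich libraries, every week 3 library was above every naive one. The log2 fold changes were 1.15 (SE 0.36) and 0.88 (SE 0.36), and 1.47 and 1.06 without those libraries. Phgdh was at 4.44, 7.27, 4.39 and 7.19 CPM in naive, at 4.02, 11.6, 12.4 and 9.38 CPM in week 3 Fas+/+ and at 9.42, 8.84, 9.39 and 4.33 CPM in week 3 Fas-/-, with log2 fold changes of 0.67 (SE 0.30) and 0.46 (SE 0.30), or 0.93 and 0.65 without the same libraries. At week 6 both genes were within or near the naive range, Psat1 at 4.63 to 9.52 CPM and Phgdh at 4.23 to 7.25 CPM.

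Psph and Shmt2, which finish serine and make glycine, varied little. Psph was at 4.72 to 7.80 CPM and Shmt2 at 31.7 to 44.1 CPM over all 20 libraries, and their log2 fold changes at week 3 lay between -0.19 and 0.00 (SE 0.09 to 0.17). Of the 9 genes, 6 in Fas+/+ and 5 in Fas-/- had a fitted value above 0 at week 3, with medians of 0.32 and 0.40 where the medians of all tested genes were 0.01 and 0.02. Without Ass1, which this contrast chose, 5 of 8 and 4 of 8 were above 0, with medians of 0.16 and 0.12. Over all genes tested, 41.3% in Fas+/+ and 32% in Fas-/- were called at week 3 against naive at an adjusted p of 0.05 or less (edgeR quasi-likelihood test, Benjamini-Hochberg).

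Per length of exon, Shmt2 and Aldh18a1 were the highest of the 9 in naive cells and Ass1 the highest at week 3. The length is that of all annotated exons of a gene joined, which can exceed the length of its transcripts. It was 2414 bases for Ass1, 4831 for Asl and 7797 for Prodh, so the order between genes depends on the annotation. Mean levels in naive libraries were 12.5 CPM per kilobase for Shmt2 and 8.80 for Aldh18a1, against 1.57 to 3.67 for the other 7. Ass1 went from 2.21 ± 0.241 CPM per kilobase in naive to 18 ± 5.10 and 14.0 ± 2.07 at week 3 and 5.96 ± 1.33 and 6.49 ± 0.545 at week 6 (Fas+/+ and Fas-/-, SD, n = 4). At week 3 Fas+/+, Ass1, Aldh18a1 (12.3 ± 4.69) and Shmt2 (11.8 ± 1.66) did not differ beyond their spread. Asl, its partner in the pathway, was at 2.57 and 2.77 CPM per kilobase in the week 3 groups.

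**Figure D2:**
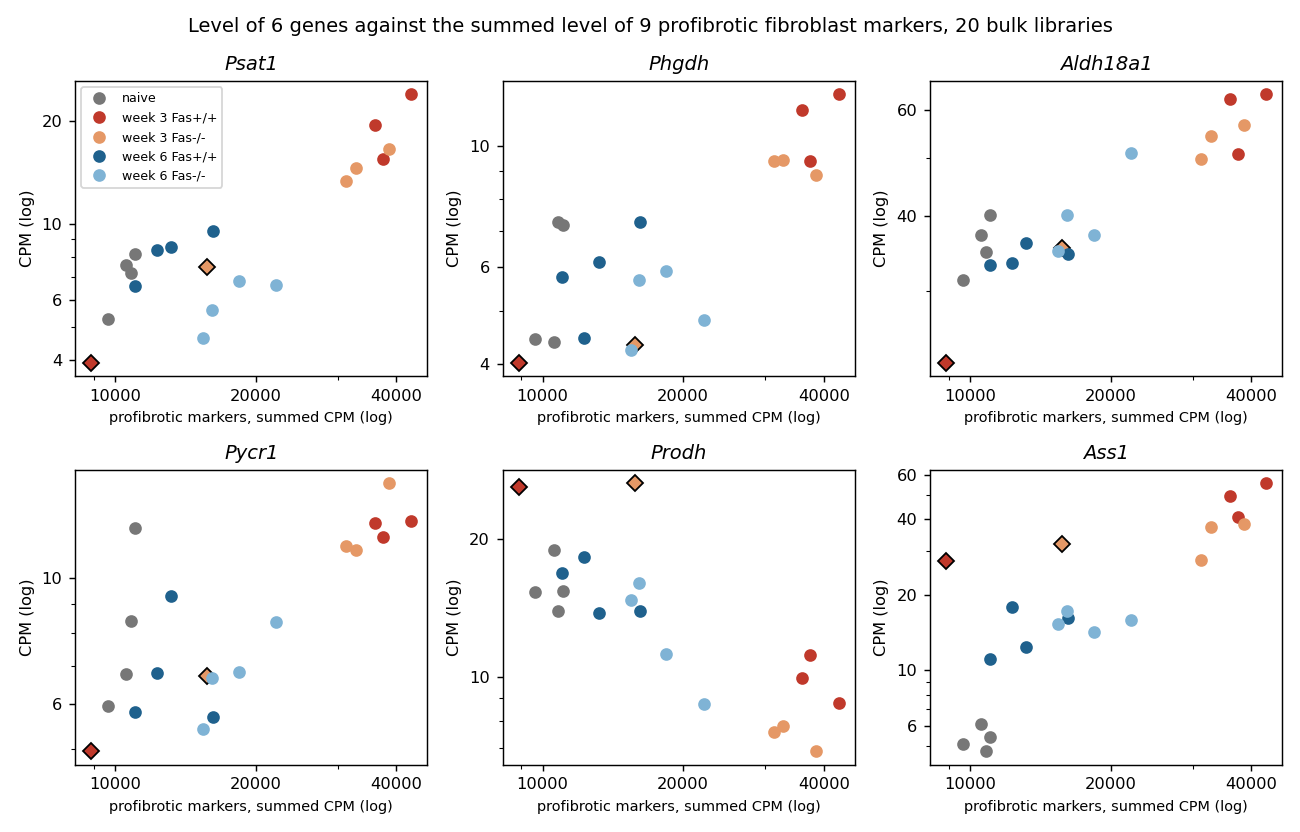
CPM of 6 genes (log axis) against the summed CPM of 9 profibrotic fibroblast markers (log axis) in the 20 bulk libraries, coloured by group, with diamonds for week 3 Fas+/+ replicate 1 and week 3 Fas-/- replicate 4. Psat1, Phgdh, Aldh18a1 and Pycr1 are high where the markers are at 31279 CPM or more and Prodh is low there, while for Ass1 both diamonds stand above all naive libraries, at marker levels just below the naive range (8889 CPM) and above it (15751 CPM).

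The level of the profibrotic markers moved with most of these genes. The 9 markers, Cthrc1 and Postn among them, summed to 9654 to 11052 CPM in naive libraries and, in the 6 week 3 libraries with high Psat1, Phgdh and Aldh18a1, to 31279 to 43119 CPM. In week 3 Fas+/+ replicate 1, where they summed to 8889 CPM, Psat1, Phgdh, Aldh18a1 and Pycr1 were all below every naive library. Ass1 was at 27.3 CPM there, the lowest of its group but 4 times or more every naive value. The sum does not show each marker: Cthrc1 was at 5.84 CPM or more in every week 3 Fas+/+ library and at 0.736 CPM or less in naive. Within groups, the Pearson r with the mean log2 level of these markers was 0.70 for Ass1. Over the 9 genes it ran from -0.87 (Prodh) to 0.96 (Psat1). The same r with the blood endothelial markers ran from -0.52 (Aldh18a1) to 0.75 (Prodh), and was -0.06 for Ass1. How many of all genes have such r was not counted, so these values have no background beside them. The part of cell makeup in these differences was not tested. Over the 20 libraries, the genes with log2 CPM most like each member, as Pearson r, were Msx1 (0.976) and Tgfb1 (0.974) for Ass1. They were Ext1 and Fkbp10 (both 0.966) for Aldh18a1, Vcan (0.923) and Col15a1 (0.913) for Pycr1, and Col15a1 (0.918) and Snd1 (0.913) for Phgdh. Psat1 was most like Rps2 (0.959) and Surf4 (0.951), and Asl most like Nenf (0.921) and Ndn (0.915). Prodh was most like Cbfa2t3 (0.921) and Thbd (0.917). Psph (Rabl3 0.743, Apoo 0.649) and Shmt2 (Gm7079 0.744, Papss1 0.730) had no gene above 0.75. These r values share libraries and groups and are a description.

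Whether the genes returned by week 6 was tested for the 8 members other than Ass1. Against naive, 0 of 8 were called in either genotype by edgeR or by DESeq2, where 5.31% of all genes in Fas+/+ and 6.48% in Fas-/- were called. At an unadjusted p of 0.05 the count was 0 in Fas+/+ and 1 in Fas-/-, Asl (log2 fold change -0.19, SE 0.08, edgeR adjusted p = 0.15), whose 4 libraries lay below all 4 naive ones. The 95% intervals still allowed sizeable differences: for Psat1 they ran from -0.52 to 0.98 in Fas+/+ and from -1.02 to 0.51 in Fas-/-, and for Prodh from -0.83 to 0.80 and from -1.15 to 0.49. For Shmt2 they were narrow, -0.33 to 0.05 and -0.30 to 0.08. These comparisons share the naive libraries with those at week 3.

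Between week 3 and week 6, Asl in Fas+/+ was the 1 called member of 8, where 22.9% of all genes were called, and 0 of 8 were called in Fas-/- (9.02% of all genes; 3 at an unadjusted p of 0.05, and Psat1 by DESeq2). Psat1 differed by -0.92 (SE 0.36, edgeR adjusted p = 0.0709) in Fas+/+ and -1.14 (SE 0.36, edgeR adjusted p = 0.0573) in Fas-/-, where its 4 week 6 libraries (6.63, 5.58, 4.63 and 6.79 CPM) lay below all 4 week 3 libraries. The count changed when single libraries were left out. The shares of all genes above (22.9% and 9.02%) belong to the fit with all libraries. No share stands beside the counts that follow, so they are not a result about the members. Without week 3 Fas+/+ replicate 1, 5 members were called: Psat1 (log2 fold change -1.24), Phgdh (-0.91), Pycr1 (-0.83) and Aldh18a1 (-0.78) lower and Asl (0.37) higher at week 6. In Fas-/-, leaving out week 3 replicate 1 brought the call of Asl given above, and without week 3 Fas-/- replicate 4, Psat1 was called (-1.32, SE 0.37, edgeR adjusted p = 0.0391, with a range of 0.000796 to 0.162 over the alternatives). With the endothelial covariate in place of leaving out libraries, 5 members were called in Fas+/+ (Psat1, Aldh18a1 and Pycr1 lower, Prodh and Asl higher) and 1 in Fas-/- (Psat1, -1.44).

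**Figure D3:**
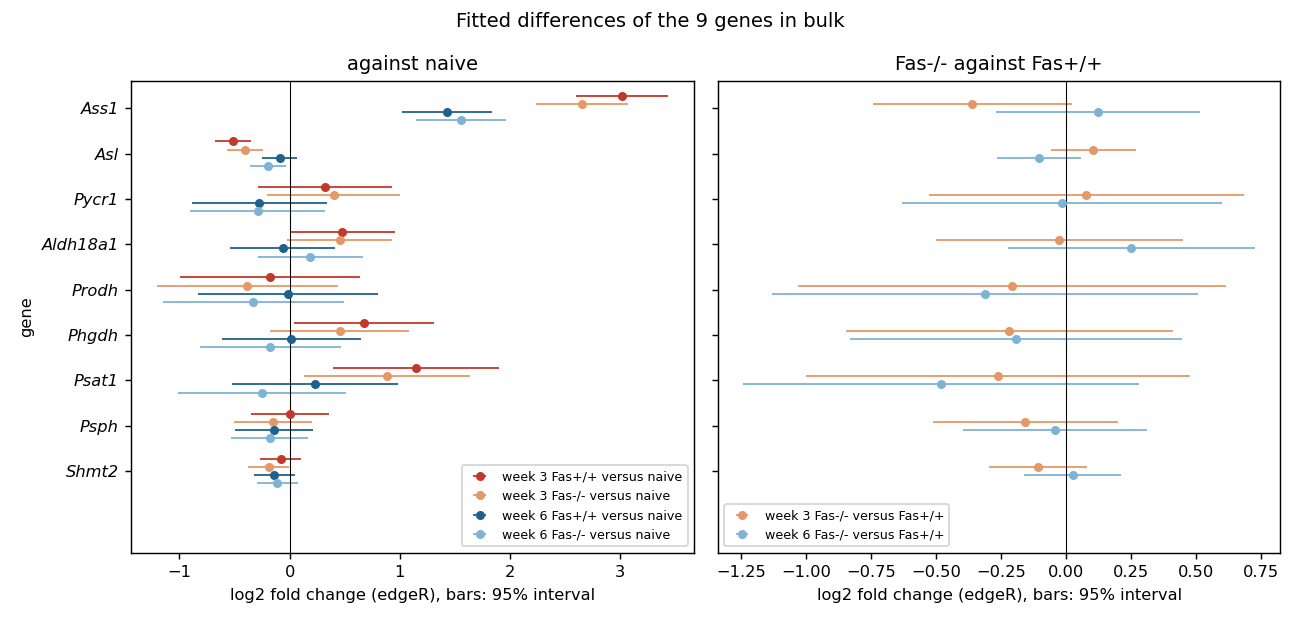
Fitted log2 fold changes of the 9 genes in bulk (points) with 95% intervals (bars), against naive on the left and of Fas-/- against Fas+/+ on the right. On the left Ass1 lies above 1 in all 4 comparisons and Asl below 0 at week 3, and on the right every interval includes 0.

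The study asked what loss of Fas changes once fibrosis should resolve, and none of the 9 genes differed between genotypes by the test. At week 3, 0 of 9 were called (edgeR and DESeq2, and 0 at an unadjusted p of 0.05; 0.171% of all genes were called). At week 6, 0 of 9 were called (edgeR and DESeq2, and 0 unadjusted; 0.0507% of all genes). Ass1 at week 3 was lower in Fas-/- by a log2 fold change of -0.36 (95% interval -0.74 to 0.02, edgeR adjusted p = 0.618, two-sided exact permutation p = 0.257), and the libraries overlapped. It was called when 4 bleomycin libraries high in endothelial markers, 1 from each group, were left out together (-0.51, SE 0.15, edgeR adjusted p = 0.0459, with a range of 0.0459 to 0.99 over the alternatives), a setting in which 8.13% of all genes were called. At week 6 the difference in Ass1 was 0.12 (95% interval -0.27 to 0.51, edgeR adjusted p = 0.98, two-sided exact permutation p = 0.457).

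Asl at week 6 showed the 1 case of genotypes that did not overlap, by a narrow gap: 16.26 to 17.1 CPM in Fas+/+ against 14.4 to 16.19 CPM in Fas-/-. The share of all genes that did not overlap was not counted, so this case has no background beside it. The log2 fold change was -0.10 (95% interval -0.27 to 0.06, edgeR adjusted p = 0.870), and the exact permutation p of 0.0286 is the smallest that 4 against 4 allows. Aldh18a1 at week 6 was at 33.1, 33.4, 36.0 and 34.6 CPM in Fas+/+ and at 51.0, 40.2, 35.0 and 37.1 CPM in Fas-/-, a log2 fold change of 0.25 (95% interval -0.22 to 0.73, edgeR adjusted p = 0.910, exact permutation p = 0.0571). Replicate 1, the Fas-/- library highest in both Aldh18a1 and profibrotic markers (22149 CPM), had the lowest Prodh of that group, 8.72 CPM. The other intervals of Fas-/- against Fas+/+ reached from -1.24 (Psat1 at week 6) to 0.69 (Pycr1 at week 3).

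The change of genotype effect between weeks was also not called for any of the 9 genes (edgeR, 0 of 9 at an unadjusted p of 0.05; 0.00634% of all genes called). The interaction was 0.48 for Ass1 (SE 0.26, 95% interval -0.06 to 1.03, edgeR adjusted p = 0.709) and -0.21 for Asl (SE 0.11, edgeR adjusted p = 0.702). It lay between -0.22 and 0.28 for the other 7 genes, with SE from 0.13 for Shmt2 to 0.55 for Prodh.

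Lists of genes around these enzymes, 4 in all, were counted in the same fits, and for week 3 they were tested. Of 86 listed genes 79 were tested. In Fas+/+, 29 were higher and 17 lower than naive, or 58.2% of the 79 beside 41.3% of all genes, and in Fas-/-, 23 were higher and 12 lower, or 44.3% beside 32%. With the endothelial covariate the counts of called genes were 32 and 34, where 23.8% and 25.6% of all genes were called, and with the 4 libraries left out 56 and 48, where 50.4% and 39% were. The lists were chosen with earlier results of these data known.

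Genes of arginine use and transport mostly went up. This list lies around Ass1, which this contrast chose, and was made with earlier results of these data known. Its excess over all genes is therefore not an independent result. In Fas+/+ 10 of 17 tested genes rose and 0 fell (22.1% of all genes rose), and in Fas-/- 9 rose and 1 fell (17.2% of all genes rose). Slc7a7, a subunit of a carrier that moves arginine across membranes, rose from 4.95 CPM in naive to 13.7 CPM in Fas+/+ (log2 fold change 1.46, SE 0.19, edgeR adjusted p = 1.98e-05) and 11.6 CPM in Fas-/- (1.23, SE 0.19). Nos2, the inducible nitric oxide synthase that returns citrulline from arginine, rose from 0.362 to 18.8 CPM in Fas+/+ (5.66, SE 1.08, edgeR adjusted p = 0.000609), and with the endothelial covariate its log2 fold change was 1.82 (SE 0.55, adjusted p = 0.0231). In Fas-/- it was at 5.33, 2.67, 2.68 and 32.5 CPM, the last in replicate 4, with a log2 fold change of 4.85 (SE 1.07), or 1.42 with the covariate (SE 0.50, adjusted p = 0.0445). Nos1, the neuronal synthase, rose from 0.212 CPM to 1.5 CPM in Fas+/+ (2.75, SE 0.53) and 1.31 CPM in Fas-/- (2.57, SE 0.53, edgeR adjusted p = 0.00159). Gatm, which begins creatine synthesis from arginine, fell from 4.54 to 1.32 CPM in Fas-/- (-1.77, SE 0.60, edgeR adjusted p = 0.0320). The medians of the list were 0.91 and 0.77 on the log2 scale, beside 0.01 and 0.02 for all genes. Adding the endothelial covariate, 9 rose and 0 fell in Fas+/+ and 9 rose and 1 fell in Fas-/-. Nos3, the endothelial synthase, and Ddah1, which degrades methylated arginine, were both chosen after their values were seen. They were no longer called with the covariate in Fas+/+, where Nos3 went from 5.07 to 0.69 (edgeR adjusted p = 0.144) and Ddah1 from 3.76 to 0.65 (edgeR adjusted p = 0.104). Endothelial marker sums of naive and week 3 libraries did not overlap, so the covariate cannot be fully separated from the comparison. The part of endothelial cells in these genes was not tested. Arg1, Arg2, Otc and Cps1 did not pass the filter on low counts.

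Genes of proline and glutamate use moved both ways. In Fas+/+ 3 of 14 tested genes rose and 5 fell, and in Fas-/- 2 rose and 1 fell, with medians of 0.02 in both. The share called was 57.1% in Fas+/+ beside 41.3% of all genes. In Fas-/- it was 21.4%, below the 32% of all genes. Adding the endothelial covariate left 1 that rose and 3 that fell in Fas+/+ and 2 and 2 in Fas-/-. Slc38a2, a carrier of small neutral amino acids that include proline, rose from 152.9 to 229.0 CPM in Fas+/+ (log2 fold change 0.58, SE 0.10) and 205.3 CPM in Fas-/- (0.42, SE 0.10), and Got2, the mitochondrial aspartate aminotransferase, rose by 0.25 and 0.22 (SE 0.07 each). Slc1a5, a glutamine carrier, fell from 299.6 CPM to 143.8 CPM in Fas+/+ (-1.06, SE 0.13) and 153.3 CPM in Fas-/- (-0.97, SE 0.13). Aldh4a1, which follows Prodh in the breakdown of proline, fell from 24.2 to 17.1 CPM in Fas+/+ (-0.49, SE 0.11, edgeR adjusted p = 0.00215).

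In the list of serine, glycine and one-carbon genes, more fell than rose: 5 of 24 rose and 8 fell in Fas+/+, and 4 rose and 8 fell in Fas-/- (19.2% and 14.8% of all genes fell), with medians of -0.05 and -0.10. With the endothelial covariate this order did not hold in Fas+/+, where 6 rose and 4 fell, while 4 rose and 5 fell in Fas-/-. Slc1a4, a carrier of serine and alanine, fell from 128.9 CPM to 60.4 CPM (log2 fold change -1.09, SE 0.10) and 85.6 CPM (-0.59, SE 0.10). Gcat, which releases glycine from a breakdown product of threonine, fell in both genotypes (-1.30 and -1.22, SE 0.18 each). Sfxn3, a mitochondrial serine carrier, rose by 0.34 and 0.26 (SE 0.06 each) and Tyms, which makes thymidylate, by 0.92 and 0.72 (SE 0.19 each). The 7 cycling-cell markers summed to 24.5 to 233.5 CPM in week 3 Fas+/+ against 14.6 to 66.9 CPM in naive libraries, and their part in the rise of Tyms was not tested.

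Of the amino acid stress response list, 11 of 24 tested genes rose and 4 fell in Fas+/+, and 8 rose and 2 fell in Fas-/-, with medians of 0.20 and 0.32. Over all genes, 22.1% rose and 19.2% fell in Fas+/+, and 17.2% rose and 14.8% fell in Fas-/-. Asns, which makes asparagine, rose from 2.83 CPM to 13.1 CPM (log2 fold change 2.21, SE 0.26, edgeR adjusted p = 7.70e-06) and 8.67 CPM (1.61, SE 0.26), and Trib3, a pseudokinase induced by ATF4, rose to 5.08 CPM in Fas+/+ (1.34, SE 0.23). Sars, the cytosolic seryl-tRNA synthetase, rose by 0.21 and 0.26 (SE 0.06 each). Vldlr, a lipoprotein receptor, fell by 1.00 and 0.67 on the log2 scale (SE 0.12 each), Gpt2, the mitochondrial alanine aminotransferase, fell by 0.67 in Fas+/+ (SE 0.15), and Eif2ak3, a stress kinase upstream of ATF4, fell by 0.36 and 0.35 (SE 0.10 each). With the endothelial covariate 6 rose and 3 fell in Fas+/+ and 8 rose and 3 fell in Fas-/-, and the log2 fold changes of Asns were 1.67 (SE 0.35) and 1.23 (SE 0.29).

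Between week 3 and week 6, 12 of the 79 genes rose and 15 fell in Fas+/+, and 3 rose and 4 fell in Fas-/-. Over all genes 22.9% and 9.02% were called, so that the count in Fas-/- was near the background. With the 4 libraries left out, 11 rose and 30 fell in Fas+/+ and 8 rose and 15 fell in Fas-/-, where 37% and 16.7% of all genes were called. In the arginine list 0 of 17 rose in either genotype, and 4 fell in Fas+/+ and 1 in Fas-/-. The shares called, 23.5% and 5.88%, were near and below those of all genes. With the 4 libraries left out, 12 fell and 1 rose in Fas+/+, and 6 fell and 0 rose in Fas-/-. Slc7a7 (log2 fold change -0.55) and Slc7a2 (-1.13), another arginine carrier, fell in Fas+/+, and Odc1 (-0.85), which commits ornithine to polyamines, fell in Fas-/-. Slc1a5 (0.80), Aldh4a1 (0.49) and Slc1a4 (0.78) rose in Fas+/+. Asns fell in both genotypes, by 1.24 and 0.87 on the log2 scale.

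By week 6 edgeR called few of these genes against naive, at a share near that of all genes in the same fit (5.31% and 6.48%). In Fas+/+ 3 of 79 were called, all higher: Slc7a7 (log2 fold change 0.91, SE 0.19), Nos1 (2.10, SE 0.53) and Asns (0.96, SE 0.26). In Fas-/- 3 were higher, Nos1 (2.88, SE 0.52), Slc7a7 (0.66, SE 0.19) and Stc2 (0.59, SE 0.17), a secreted hormone-like protein, and 3 were lower, Slc1a5 (-0.60, SE 0.12), Slc1a4 (-0.41, SE 0.10) and Mthfd1 (-0.24, SE 0.07), a folate enzyme of the cytosol. DESeq2 called 7 of the 79 in Fas+/+ (5 above naive) and 16 in Fas-/- (9 above). The edgeR shares do not apply to these DESeq2 counts, which have no share of all genes beside them. With the 4 libraries left out, edgeR called 6 (5 above) and 12 (5 above), where 9.62% and 11.7% of all genes were called. Under the endothelial covariate 3 and 9 were called, also with no share of all genes beside them. Between genotypes edgeR called 0 of 79 at both weeks, with 13 at week 3 and 4 at week 6 at an unadjusted p of 0.05, and DESeq2 called 1 of the serine list, higher in Fas-/-, at week 3 and 0 at week 6. With the 4 libraries left out, 16 of 79 were called at week 3, 5 higher and 11 lower in Fas-/-, where 8.13% of all genes were, and 0 at week 6, where 0.738% were.

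In the single-cell data, 13900 barcodes gave 12059 cells that had between 200 and 7500 genes detected and no more than 20% of UMIs from mitochondrial genes, in 22 clusters. Of these, 12 clusters with 8642 cells were mesenchymal-like by their markers, 520 from the naive library, 2107 and 1986 from the libraries labelled week 3 Fas+/+ and Fas-/-, and 1653 and 2376 from those labelled week 6. Names of clusters were rebuilt here from markers. A total of 1502 cells (12.5%) carried a barcode that also occurred in another library, 344 of 603 in the naive library among them, and levels of Ass1 without the 959 shallower copies are given beside the first result. Scrublet marked 46 cells (0.381%) as doublets, too few for the caller to count as having worked, and none were removed on that ground. Each condition is 1 library, so no difference was tested, and intervals are exact Poisson 95% intervals that cover counting error only.

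Levels in single cells are UMIs of a gene per 1000000 UMIs of the cells counted, also written CPM, without TMM scaling. Ass1 in mesenchymal-like cells was at 6.37 (95% interval 4.41 to 8.90) in the naive library. It was at 12.4 (11 to 13.9) and 9.76 (8.25 to 11.5) in the libraries labelled week 3 Fas+/+ and Fas-/-, and 29.6 (27.5 to 31.8) and 35.9 (33.7 to 38.1) in those labelled week 6. All 4 bleomycin libraries were above the naive library in value, but the intervals of week 3 Fas-/- and naive overlapped. Without the shallower copies of shared barcodes the 5 levels were 6.37, 12.4, 9.82, 29.7 and 36.2. When cells were thinned to 3000 UMIs each they were 3.62 (5 UMIs), 11.8, 10.1, 22.5 and 21. The libraries labelled week 6 were the higher ones here and the week 3 groups in bulk, the same contrast of labels as over all genes.

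**Figure D4:**
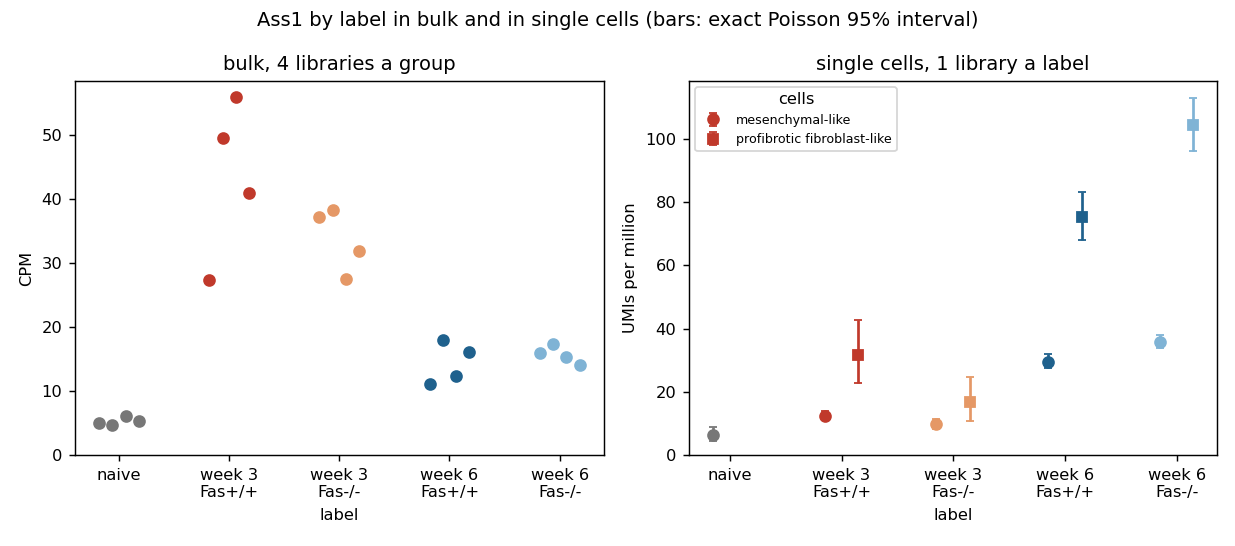
Ass1 by label: CPM in the 20 bulk libraries on the left, and UMIs per 1000000 UMIs with exact Poisson 95% intervals in mesenchymal-like (circles) and profibrotic fibroblast-like cells (squares) of the 5 single-cell libraries on the right. The week 3 groups are highest in bulk and the libraries labelled week 6 are highest in single cells.

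Within the mesenchymal-like cells, Ass1 was uneven between clusters. In the cluster named profibrotic fibroblast-like from Cthrc1, Spp1 and Grem1 (0 naive cells, 95 to 239 in the other libraries) it was at 31.6 and 16.7 CPM in the libraries labelled week 3 and at 75.3 (68.0 to 83.2) and 104.1 (96.1 to 112.7) in those labelled week 6. Adventitial fibroblast-like cells had it in every library, naive included (17.8 to 31.8), and so did pericyte-like cells (20.2 to 37.7). Inflammatory fibroblast-like cells, led by Saa3 and Lcn2, were at 1.78 in the naive library and 10.5, 6.94, 20.9 and 28.3 in the others, whereas alveolar lipofibroblast-like cells stayed between 0.582 and 5.96. These classes depend on the clustering: at a resolution of 0.4 the profibrotic fibroblast-like cluster held 2549 cells, 74 of them naive, with Saa3 and Lcn2 among its leading genes, and no cluster was named inflammatory fibroblast-like.

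Cells outside the mesenchymal-like clusters held Ass1 too. Blood endothelial-like cells, which the CD31 gate should have removed, had 66.2 and 47.6 CPM in the libraries labelled week 3 and 76.4 and 77.0 in those labelled week 6, where they numbered 1131 cells in Fas+/+. Alveolar epithelial-like cells had 3.15 to 9.33, from 8 UMIs in all. A cluster led by hemoglobin genes had 19 and 47.7 in the libraries labelled week 3 and 109.5 and 136.9 in those labelled week 6. Igkc, Igha, Jchain, Hist1h2ap, Alas2 and Il11 were also among its 10 leading genes. The 2 clusters left unnamed had 225.1 in the library labelled week 6 Fas+/+ and 0 to 23.6 in the others. Cells of these clusters were shallow. The median ratio of their UMIs to the median of their own library was 0.264 in the hemoglobin-led cluster and 0.198 and 0.089 in the unnamed ones. The summed level over all cells kept was 6.41, 15, 11.8, 45.5 and 43.0 CPM.

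Proline genes differed between classes of single cells, and the part of these classes in the bulk levels was not tested. Aldh18a1 was at 16.8 to 23.6 CPM in adventitial fibroblast-like and 15.1 to 25.7 in profibrotic fibroblast-like cells, against 0 to 4.73 in blood endothelial-like and 4.66 to 11.7 in alveolar lipofibroblast-like cells. Vascular smooth muscle-like cells had it at 13.5 to 24.6, airway and ductal myofibroblast-like cells at 2.78 to 30.9 and pericyte-like cells at 4.40 to 13.6. Pycr1 was at 7.02 to 14.3 in adventitial and 5.27 to 20.1 in profibrotic fibroblast-like cells and at 0 to 1.53 in blood endothelial-like cells. Prodh was at 22.8 to 32.2 in blood endothelial-like and 11.5 to 24.4 in alveolar lipofibroblast-like cells, and at 0.58 to 2.26 in profibrotic fibroblast-like cells, from 15 UMIs in all. Over all mesenchymal-like cells Prodh was at 10.5 in the naive library and 4.52 to 8.01 in the others.

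Serine genes had a pattern of their own. Phgdh was at 19 to 35.9 in mesothelial-like, 18.2 to 27.4 in adventitial fibroblast-like and 0 to 32.3 in airway and ductal myofibroblast-like cells, at 4.87 to 18 in profibrotic fibroblast-like cells and at 2.09 or less in pericyte-like and blood endothelial-like cells, with 4 and 10 UMIs in all. The cluster led by hemoglobin genes had it at 15.2 to 39.4 and the unnamed clusters at 3.07 to 58.4. Psat1 was, among the named classes, highest in lymphatic endothelial-like cells (40.7 and 61.1 in the 2 libraries with 20 cells or more), then in mesothelial-like (11 to 30.4) and alveolar epithelial-like cells (11.7 to 18.9), and at 0 to 5.79 in profibrotic fibroblast-like cells, where the 0 of the library labelled week 3 Fas+/+ allows up to 2.26 (3 UMIs). Hemoglobin-led and unnamed clusters had Psat1 at 5.70 to 27.9 and 0 to 46.3. Asl was, among the named classes, highest in alveolar epithelial-like (42.0 to 56.7) and mesothelial-like cells (32.7 to 49.3). Psph and Shmt2 were nearly even, at 9.17 to 11.2 and 11.3 to 16.9 over all mesenchymal-like cells of the 5 libraries.

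**Figure D5:**
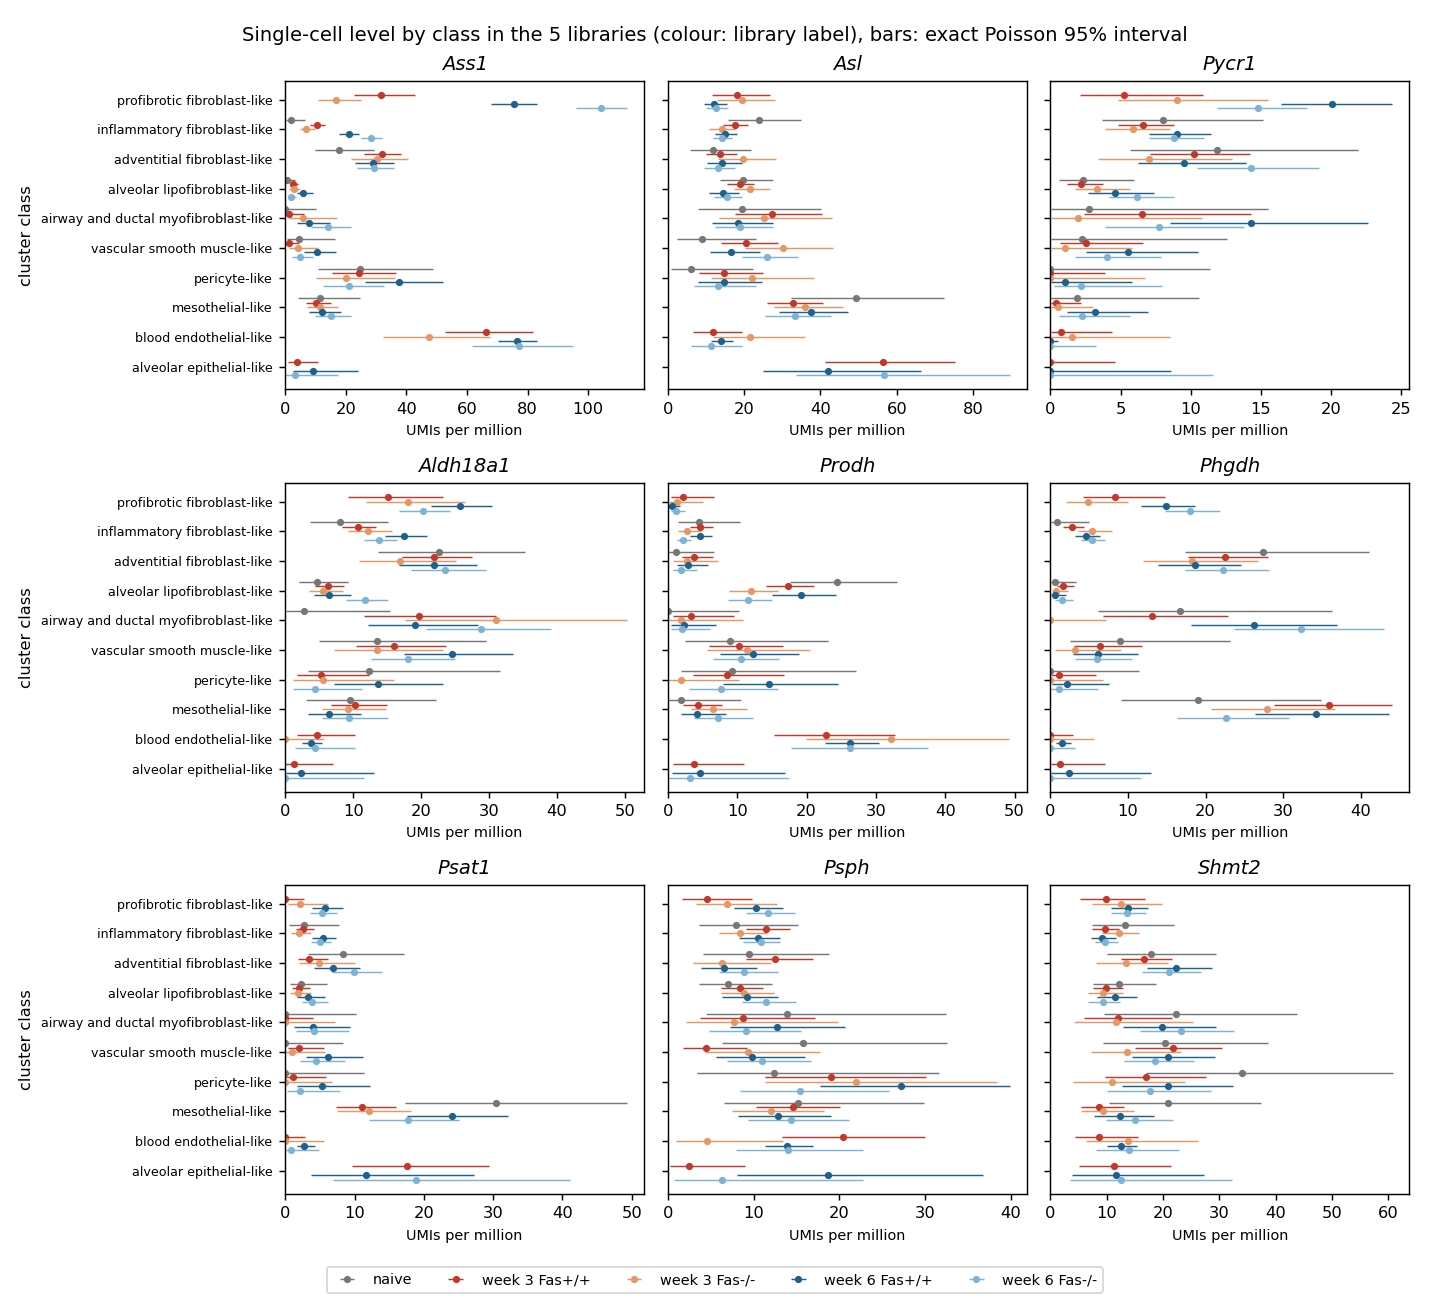
UMIs per 1000000 UMIs of the 9 genes (axes from 0) in 10 cluster classes with at least 20 cells in a library, coloured by library label, with exact Poisson 95% intervals. Ass1 reaches its highest levels in profibrotic fibroblast-like (16.7 to 104.1) and blood endothelial-like cells (47.6 to 77.0). The profibrotic fibroblast-like value of 16.7 is below all adventitial fibroblast-like (from 17.8) and pericyte-like values (from 20.2). Prodh is highest in blood endothelial-like and alveolar lipofibroblast-like cells. Phgdh is above 18 in every library in mesothelial-like and adventitial fibroblast-like cells. The clusters led by hemoglobin genes or left unnamed are not drawn.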

How the data were processed

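Bulk RNA-seq of 20 libraries and single-cell RNA-seq of 5 libraries were analysed. The authors trimmed bulk reads with skewer, aligned them with HISAT2 to GRCm38 and deposited raw counts per gene from HTSeq. Single-cell counts of UMIs per gene and cell were made by the authors with Cell Ranger.

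Counts of genes that passed filterByExpr (minimum count 10) were TMM-scaled and fitted together over all 5 groups of 4 with edgeR 4.0.16 (R 4.3.3; glmQLFit, glmQLFTest), with Benjamini-Hochberg adjustment over 15773 genes and calls at an adjusted p of 0.05 or less. CPM are counts over the TMM-scaled library size, and log2 CPM have a prior count of 2. Exact permutation tests were two-sided. Alternatives were RLE scaling, no filter, a replicate block, the 2 groups compared alone, DESeq2 1.42.0, endothelial markers as a covariate, and libraries left out. The step was tested on simulated data, where DESeq2 made a larger share of false calls than edgeR, above the nominal rate; the limit for passing was relaxed after this was seen.

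Single cells were clustered with Seurat 5.3.0 and sctransform 0.4.2 (3000 features, 20 components, resolution 0.8), and UMIs were summed per class and library. The members, gene lists and tests were chosen with earlier results of these data known. Text names the 9 members, the 2 called genes of smallest p in each direction per list and comparison with the same genes' values in the other genotype, the 2 genes most like each member, and Fas; 1 gene that this rule names is not reported here. Replicate libraries differed beyond sampling noise. No sequences were read from the deposited files.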

Additional observations from a re-analysis of the deposited data

Results flagged for a closer look

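Of 45 groups of 4 values (9 genes in 5 bulk groups), 5 had 1 library far from the other 3, its gap to the nearest taking a share of the group's range above Dixon's 95% critical value, where chance gives about 1 in 20 groups. In week 3 Fas+/+ replicate 1 they were Pycr1 (share 0.898, lowest at 4.96 CPM) and Prodh (0.863, highest at 26.1 CPM). In week 3 Fas-/- replicate 4 they were Prodh (0.953, highest at 26.6 CPM) and Phgdh (0.887, lowest at 4.33 CPM). These are the 2 libraries with the highest summed blood endothelial markers, 12506 and 11040 CPM, and the part of those cells was not tested. The last was Shmt2 in week 6 Fas-/- replicate 3 (0.866, highest at 38.1 CPM).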

How the results depend on the processing

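Of 213 counts and single-cell levels recomputed, 199 stayed within 1.5 times the value reported or within its error and 14 moved. Of 1287 values of single genes, 1186 counted as the same. Tested ones among them kept their direction and side of the threshold, and ones with no test moved by less than their SE. A further 24 passed the threshold only under the alternative, 19 with no test moved by more, and 58 with a test changed sign. Sign changes of values with no test are not among the 58. For example, Psph in week 3 Fas+/+ against naive ran from -0.066 to 0.096 with 1 library left out. None of these 58, which belong to 20 differences, was called in either setting, and the smallest adjusted p under the alternative was 0.556. Members called between week 6 and week 3 in Fas+/+ (1 as reported) were 5 with the endothelial covariate, 6 with 4 libraries left out, 2 by DESeq2 and 1 to 5 with 1 library left out. In Fas-/- (0 as reported) they were 1, 4, 1 and 0 to 1, and 1 in a fit of the groups compared alone. Between genotypes at week 3 the count of 0 became 1 with the 4 libraries left out. Shares of all genes called also differ between settings and are not given beside these counts, so the counts are not a result about the members. For the 4 libraries left out, the shares stand with the pathway lists above. The cause of these changes in counts was not tested. Thinning cells to 3000 UMIs moved Ass1 to 3.62 in the naive library and to 22.5 and 21 in those labelled week 6 Fas+/+ and Fas-/-. Leaving out the shallower copies of shared barcodes was chosen after seeing the data.

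The tested values that changed sign follow, on the log2 scale. With the endothelial covariate, Pycr1 was at 0.068 and Aldh18a1 at 0.23 in week 6 Fas+/+ against naive, and between genotypes Pycr1 was at -0.13 and Prodh at 0.14 at week 3, and Prodh at 0.036 and Shmt2 at -0.0013 at week 6. With 4 libraries left out, Psph was at 0.059 and Shmt2 at -0.0026 between genotypes at week 6, and the interaction was 0.069 for Prodh and -0.083 for Phgdh. With the replicate block, Pycr1 was at 0.012 between genotypes at week 6 and the interaction of Phgdh was -0.036. With 1 library left out, Prodh ran from -0.098 to 0.080 and Phgdh from -0.099 to 0.14 in week 6 Fas+/+ against naive. Between genotypes at week 3, Pycr1 ran from -0.16 to 0.25, Aldh18a1 from -0.27 to 0.11, Prodh from -0.90 to 0.29 and Psat1 from -0.59 to 0.0077, and at week 6 Pycr1 ran from -0.13 to 0.16, Psph from -0.17 to 0.088 and Shmt2 from -0.012 to 0.072. Between week 6 and week 3, Shmt2 ran from -0.10 to 0.041 in Fas+/+, and Prodh from -0.12 to 0.78 and Psph from -0.16 to 0.058 in Fas-/-. The interaction ran from -0.27 to 0.15 for Pycr1, -0.60 to 0.59 for Prodh, -0.18 to 0.28 for Phgdh, -0.49 to 0.11 for Psat1 and -0.011 to 0.25 for Psph. The causes were not tested.

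Whether replicate numbers pair the libraries was not settled, because pairs with different numbers were not compared. Over 40 pairs with the same number the correlation of deviations ran from -0.68 to 0.43. The median was -0.013, and 13 were over 0.1. With the replicate block, Asl was still called between week 6 and week 3 in Fas+/+ (0.42, adjusted p = 0.00275), and pathway genes called at week 3 were 46 and 33, against 46 and 35.

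With 4 libraries a group, intervals of Psat1 and Prodh spanned over 1 log2 unit, and low UMI counts limit single-cell levels of Prodh, Phgdh and Psat1.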
